A study of Mus musculus with 2 samples.

Results

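Arpc3, Iars and Chmp2a are genes of basic cell function, and Dcxr, an enzyme of the uronate pathway, was grouped with them. The 4 genes are described here for how far a Bmi1-dependent difference in ubiquitylated histone H2A (uH2A) reached from their promoters. The genes were chosen by measured values. Each is 1 of the 661 genes with a peak of higher uH2A in wild-type than in Bmi1 null cells that overlaps the promoter, and there are 671 such promoter peaks among 16406 peaks in all. Their wild-type excess inside the peak was therefore given by the choice. All values below come from the same pair of libraries and are descriptions, without a test.

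The libraries were made by chromatin immunoprecipitation and sequencing (ChIP-Seq) with the E6C5 antibody against uH2A. The chromatin came from C57BL/6 mouse embryonic fibroblasts (MEFs) immortalized with TBX2, either Bmi1 WT or Bmi1 KO, the latter called Bmi1 null here. Each genotype had 1 library and no replicate. There were 6114925 tags in the wild-type library, of which 4096561 were left after repeats of a position and strand were removed, and 8020248 in the null library, of which 5253063 were left.

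Bmi1 is a subunit of Polycomb repressive complex PRC1, in which RING finger proteins attach ubiquitin to histone H2A. The mark is best known from silent developmental regulators, whereas Arpc3, Iars and Chmp2a serve functions that most cells need. Arpc3 is a subunit of the Arp2/3 complex, which starts branched actin filaments. Iars is the isoleucyl-tRNA synthetase, which charges isoleucine onto its tRNA. Chmp2a is a subunit of ESCRT-III, which cuts membrane necks in endosomal sorting and in cell division. Dcxr reduces dicarbonyl sugars and L-xylulose in the uronate pathway.

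The stretch just upstream of each start site is shown because the tags lay at different places around it. These are the RefSeq promoters of GRCm38.p6, each with 250 bases before the start site in the direction of the gene, and all 4 genes were matched. That build differs from mm8, on which the tags were mapped, and no position was carried from one to the other. Capitals mark CpG dinucleotides. The windows are chr5:122391628-122391877 on the + strand for Arpc3, chr13:49681880-49682129 on the + strand for Iars, chr7:13034778-13035027 on the - strand for Chmp2a and chr11:120727285-120727534 on the - strand for Dcxr.
Arpc3: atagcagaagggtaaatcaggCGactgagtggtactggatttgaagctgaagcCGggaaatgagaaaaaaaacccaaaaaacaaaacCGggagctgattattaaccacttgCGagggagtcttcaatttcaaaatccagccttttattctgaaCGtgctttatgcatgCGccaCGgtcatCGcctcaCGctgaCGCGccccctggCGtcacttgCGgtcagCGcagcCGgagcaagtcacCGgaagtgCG
Iars: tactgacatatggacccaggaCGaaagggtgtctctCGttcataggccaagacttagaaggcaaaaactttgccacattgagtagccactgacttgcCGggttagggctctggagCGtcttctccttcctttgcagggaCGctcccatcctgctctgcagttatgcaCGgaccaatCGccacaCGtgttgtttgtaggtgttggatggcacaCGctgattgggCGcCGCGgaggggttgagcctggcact
Chmp2a: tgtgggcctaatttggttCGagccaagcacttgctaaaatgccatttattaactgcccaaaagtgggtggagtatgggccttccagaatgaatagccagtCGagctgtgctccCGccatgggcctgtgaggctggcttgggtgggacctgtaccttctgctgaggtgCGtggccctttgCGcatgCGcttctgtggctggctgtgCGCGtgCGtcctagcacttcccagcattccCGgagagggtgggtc
Dcxr: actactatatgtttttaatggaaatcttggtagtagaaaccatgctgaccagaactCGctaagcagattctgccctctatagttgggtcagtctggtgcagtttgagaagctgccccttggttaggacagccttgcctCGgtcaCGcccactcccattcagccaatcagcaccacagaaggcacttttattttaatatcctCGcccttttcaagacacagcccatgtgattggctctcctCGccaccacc

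The promoters differed in CpG content. Arpc3 held 17 CpG dinucleotides, Iars 12, Chmp2a 10 and Dcxr 5, against a median of 6 over 32851 RefSeq promoters cut in the same way. The observed over expected CpG ratio was 1.04 at Arpc3, 0.632 at Iars, 0.482 at Chmp2a and 0.350 at Dcxr. Of all promoters, 95.9% had a lower ratio than Arpc3, 68.3% than Iars, 58.4% than Chmp2a and 47.7% than Dcxr. The G and C share ran from 48.8% at Dcxr to 58.0% at Chmp2a, with a median of 52.4% over all promoters.

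Short motifs were searched on both strands of these 250 bases, and a match is only a description of the letters. The letters CCAAT began 79 and 33 bases before the Iars start and 89 and 22 bases before the Dcxr start, and 33.8% of all promoters hold them. The Ets-like letters CGGAAG began 10 bases before the Arpc3 start, and 13.6% of promoters hold them. The letters GCCAT began 210 and 136 bases before the Chmp2a start and 46 bases before the Iars start, and 32.9% of promoters hold them. The GC box letters GGGCGG, in 32.7% of promoters, and the TATA box letters TATAAA, in 12.4%, were in none of the 4 windows.

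The primer pairs designed for ChIP-PCR at these promoters were placed on the same windows, which run on for 50 bases past the start site. Both Iars primers lay inside, the forward at bases -139 to -120 and the reverse, on the opposite strand, at -60 to -41, so that the product covers 99 bases just upstream of the start. They are printed in lower case, 5' to 3'.
Iars forward: ggagcgtcttctccttcctt
Iars reverse: tgccatccaacacctacaaa
The Chmp2a forward primer met the upstream edge of its window with 18 of its 20 bases. The reverse primer of Chmp2a and both primers of Arpc3 and of Dcxr were not in these windows.

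Tags were counted in the peak, in the 2 kb promoter around the start site, called its centre here, and in 200 bp bins from -10 to +10 kb of the centre. Upstream and downstream follow the direction of each gene in GRCm38.p6, and would be exchanged at a gene that lies the other way in mm8. Wild-type counts were multiplied by 1.31, the null total over the wild-type total. Ratios are wild-type over null after this scaling, with exact 95% intervals that cover counting error only.

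**Figure D1:**
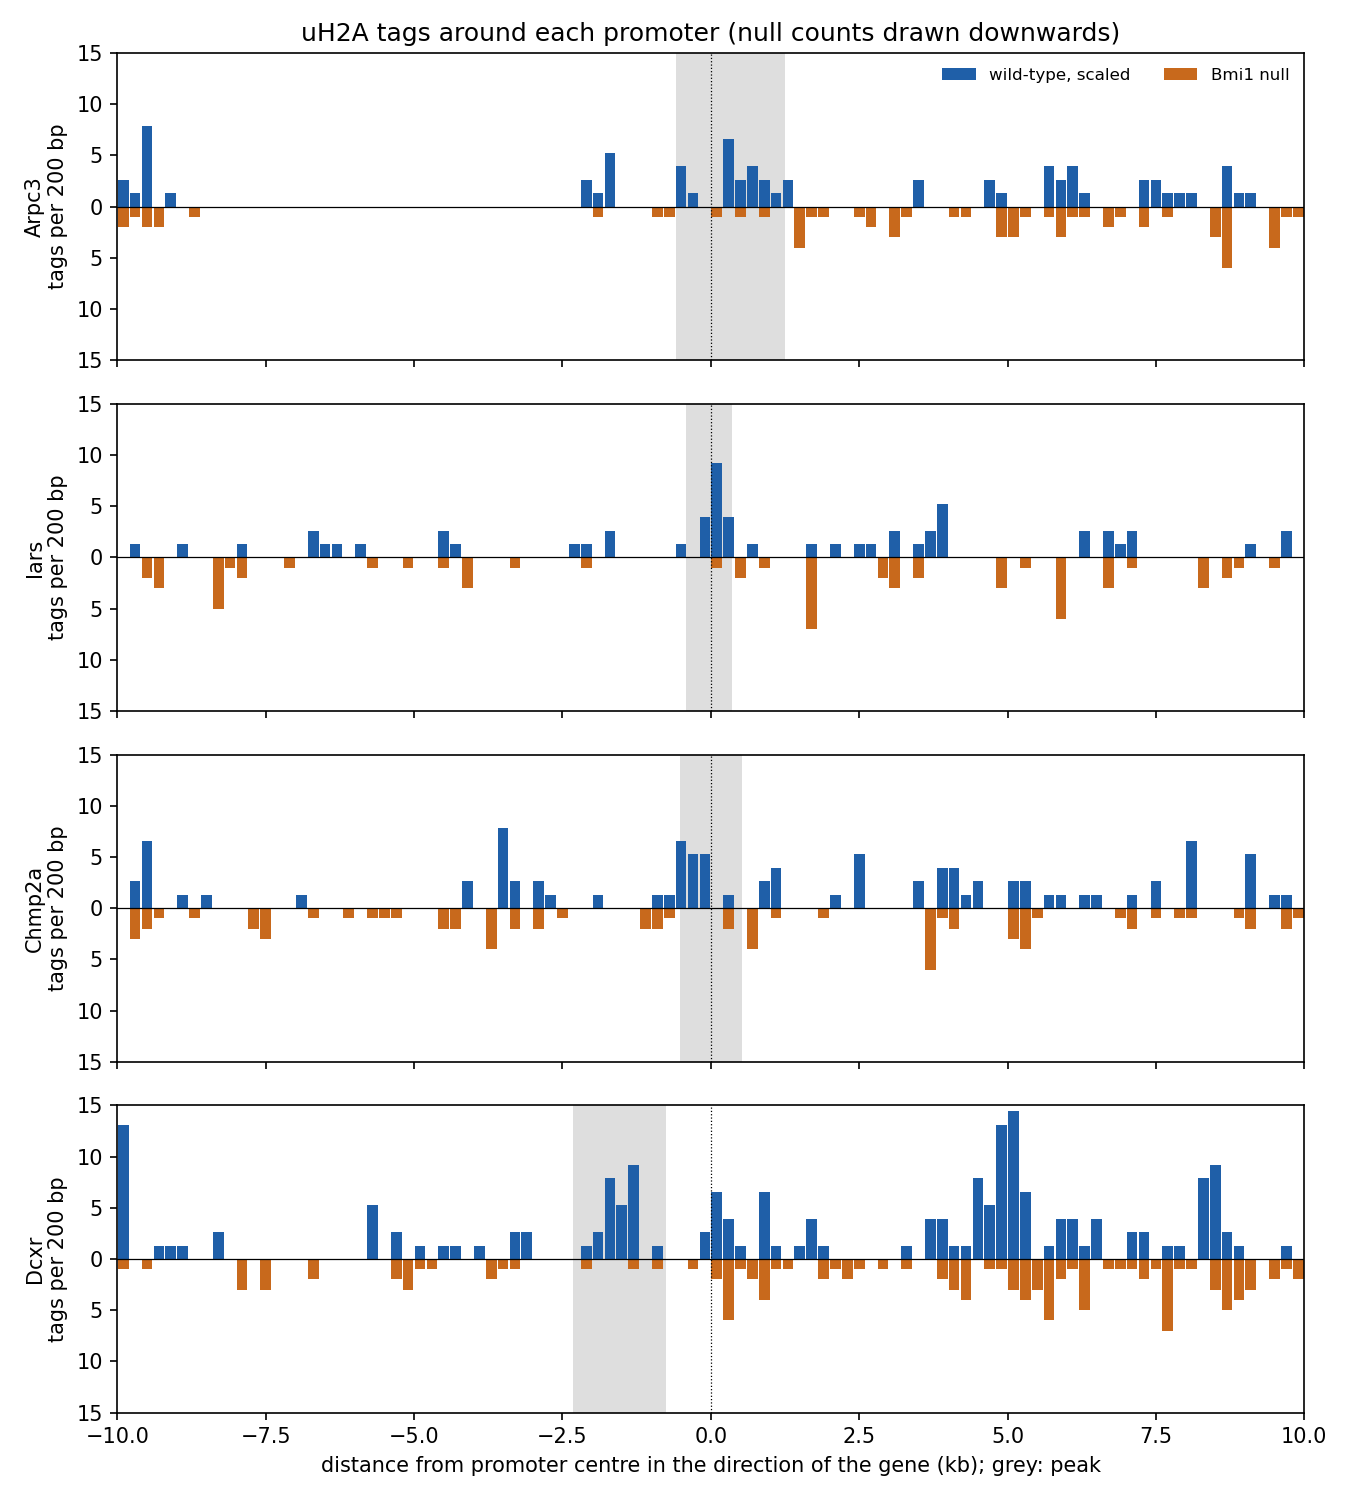
Tags per 200 bp bin against the distance from the promoter centre in kb, in the direction of each gene, with scaled wild-type counts drawn upwards in blue, null counts downwards in orange and the peak in grey. The wild-type excess lay around the centre at Arpc3 and Iars. At Chmp2a it lay in the first kb upstream, with more wild-type than null tags also from 2 to 5 kb downstream. At Dcxr it lay away from the centre, with taller bins near +5 kb and at the -10 kb edge.

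At Iars the difference was narrow and lay on the start site. The peak, chr13:49693655-49694440 (mm8), ran from -426 to +360 bp of the centre and held 14 wild-type tags against 1 null tag, a ratio of 18.4 (2.79 to 776). The bin from 0 to +200 bp held 7 wild-type tags and 1 null tag, and the bins on either side held 3 and 3 against none. No other bin of the window was as high as that from 0 to +200 bp, and the highest outside the peak, from +3800 to +4000 bp, held 4 wild-type tags and no null tag. The 14 tags lay at 11 distinct positions and strands, with 8 on the plus and 6 on the minus strand, and no position held more than 2. With 1 tag per position and strand, the peak ratio was 14.1 (2.05 to 607), and with tags counted at their shifted 5' end 9.18 (2.11 to 83.2).

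Around the Iars peak no difference was detectable at this depth. Outside the peak, 39 wild-type and 60 null tags gave a ratio of 0.853 (0.555 to 1.30), and distinct tags gave 0.970 (0.588 to 1.58). From 1 to 2 kb downstream there was 1 wild-type tag against 7 null tags, a ratio of 0.187 (0.00416 to 1.46). All 7 of these null tags lay in the bin from +1600 to +1800 bp, and they stood at 3 distinct positions and strands. No other listed peak lay within 100 kb, and the nearest was 336.6 kb away.

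At Arpc3 the wild-type tags lay on both sides of the start and left it empty. The peak, chr5:122651967-122653789 (mm8), was the widest of the 4 at 1823 bp and ran from -578 to +1245 bp. It held 19 wild-type and 3 null tags, a ratio of 8.31 (2.44 to 43.8). The bins from -200 to +200 bp held no wild-type tag and 1 null tag. The wild-type tags stood upstream at -600 to -200 bp, with 4 tags, and downstream, with 5 tags in the bin from +200 to +400 bp and 1 to 3 tags in each bin from there to +1400 bp.

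Wild-type tags in the Arpc3 peak often repeated a position. The 19 tags came from 10 positions and strands, of which 6 held more than 1 tag, and the distinct ratio was 4.27 (1.10 to 24.2). In the 2 kb promoter the ratio was 4.20 (1.47 to 14.7) with all tags, from 16 and 5 tags, and 2.05 (0.592 to 7.97) with distinct tags. Outside the peak 43 wild-type and 60 null tags gave 0.940 (0.620 to 1.41), and distinct tags 0.977 (0.597 to 1.58).

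Arpc3 also had a stretch without tags in either library. From 8.6 to 2.2 kb upstream, 32 bins in a row were empty, and 5 of the 671 promoter peaks, Arpc3 included, had an empty run this long, against a median of 5 bins. Whether 25 bp tags can be placed there was not tested. So the upstream side of Arpc3 says little about how far the difference reached. Between this stretch and the peak, the ring from 1 to 2 kb upstream held 5 wild-type tags against 1 null tag, a ratio of 6.56 (0.734 to 310). Downstream, from 2 to 5 kb, 5 wild-type tags stood against 12 null tags, 0.547 (0.151 to 1.67).

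At Chmp2a the difference near the start was on its upstream side. The peak, chr7:11934401-11935447 (mm8), was centred on the promoter. Its 14 wild-type tags, from 8 positions and strands, stood against 2 null tags, a ratio of 9.18 (2.11 to 83.2), or 10.3 (1.38 to 455) with distinct tags. Its 3 upstream bins held 5, 4 and 4 wild-type tags and no null tag. Its 3 downstream bins held 1 wild-type and 2 null tags. Over the whole first kb upstream there were 15 wild-type and 3 null tags, 6.56 (1.86 to 35.3). Over the first kb downstream there were 3 and 6, 0.656 (0.106 to 3.07). Further downstream, from 2 to 5 kb, 16 wild-type tags stood against 9 null tags, 2.33 (0.970 to 5.99). They lay at 12 and 3 distinct positions and strands.

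The Chmp2a promoter as a whole held 18 wild-type and 9 null tags, 2.62 (1.12 to 6.63). With distinct tags this became 2.82 (0.904 to 10.4), and with scaling by the chromosome 2.34 (0.999 to 5.91). Outside the peak 69 and 70 tags gave 1.29 (0.914 to 1.83), and distinct tags 1.09 (0.721 to 1.65). The highest bin of the window was not in the peak. It lay at -3600 to -3400 bp, with no null tag and 6 wild-type tags from 3 positions and strands, against 5 and 0 in the highest peak bin. With 1 tag per position and strand the highest bin moved into the peak, to -200 to 0 bp, and with bins laid on a fixed grid of the genome it lay in the peak as well, so its place rests on few tags.

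At Dcxr the peak was not at the start site. The peak, chr11:120544134-120545700 (mm8), ran from 2329 to 762 bp upstream of the centre, and only 238 of its 1567 bp lay within the 2 kb promoter. Of the promoter peaks, 96.3% had their middle closer to the centre. It had 3 null tags and 21 wild-type tags, the latter from 13 positions and strands, a ratio of 9.18 (2.74 to 48.1), or 5.56 (1.53 to 30.4) with distinct tags. The bins from -2000 to -1200 bp carried nearly all of it, with 2, 6, 4 and 7 wild-type tags against 0, 0, 0 and 1 null tags.

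The Dcxr promoter itself held 17 tags in each library. The scaled ratio was 1.31 (0.629 to 2.73), and 10.1% of the 663 promoters with such a peak and at least 1 null tag had a lower one. With distinct tags it was 1.50 (0.642 to 3.54). From 0 to 1 kb downstream, 14 wild-type tags stood against 15 null tags, 1.22 (0.547 to 2.72). So the gene is among those with a promoter peak through the edge of a peak that lay upstream.

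Dcxr was also the gene with most tags outside its peak in both libraries, 130 wild-type and 117 null. Their ratio of 1.46 (1.13 to 1.89) was the only one of the 4 outside ratios with an interval above 1. With distinct tags it was 1.34 (0.990 to 1.82). The surroundings were high too. In the 1 Mb around Dcxr without the central 20 kb the ratio was 1.27, and scaled by those tags the outside ratio was 1.15 (0.891 to 1.49).

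The excess outside the Dcxr peak came in places. The neighbouring bins from +4800 to +5200 bp had 4 null tags and 21 wild-type tags, the latter from 14 positions and strands, a ratio of 6.89 (2.32 to 27.6), in a span of 400 bp. The wild-type count is that of the listed peak itself, and no listed peak lies there. This pair of bins was singled out after its values were seen. Among the highest such pairs outside the peak at the 671 promoter peaks, 2 were as high, Dcxr included. A further bin at the edge of the window, -10000 to -9800 bp, held 10 wild-type tags and 1 null tag at 5 and 1 distinct positions and strands.

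**Figure D2:**
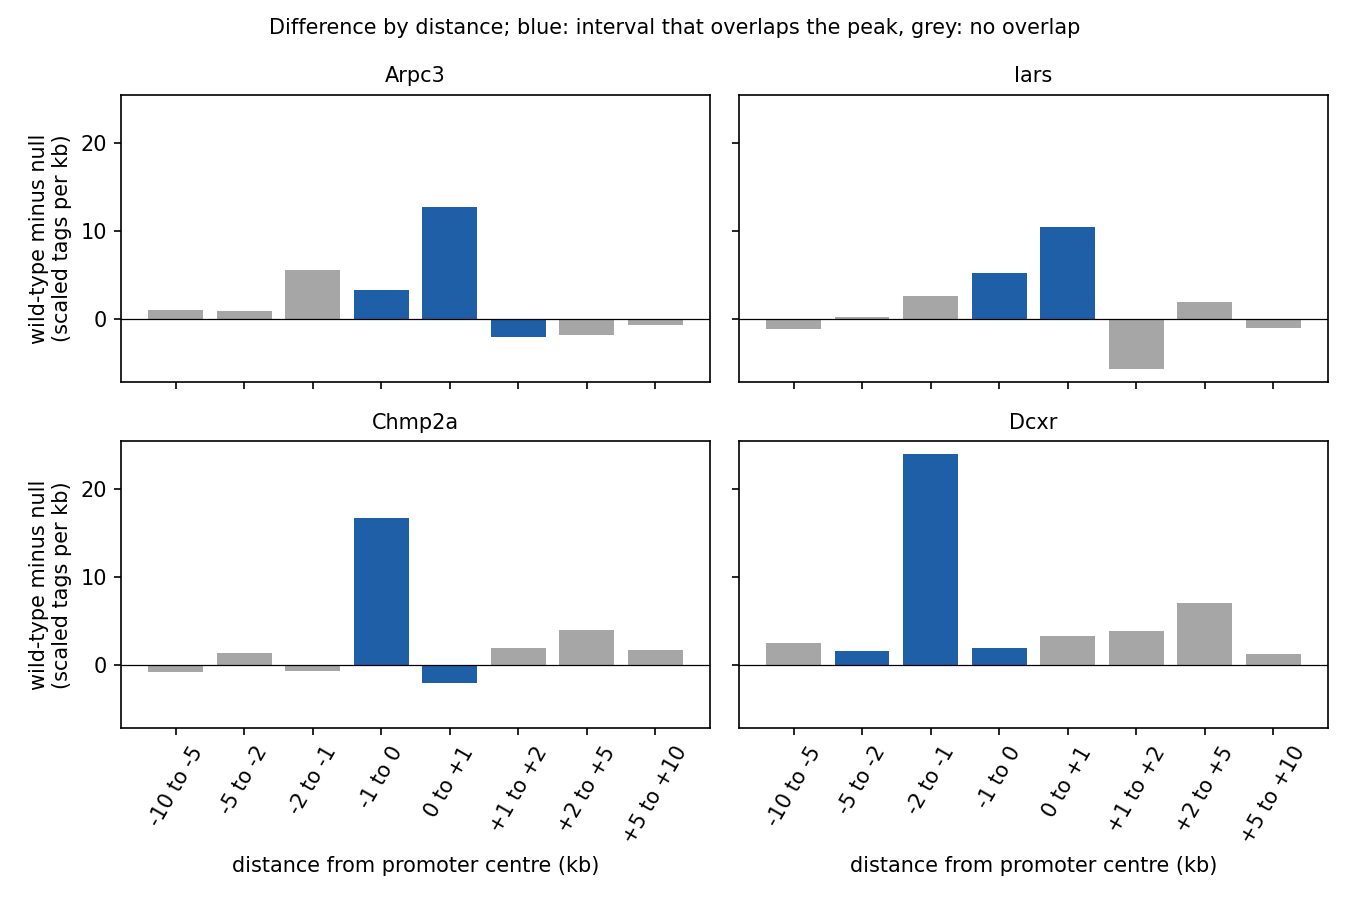
Scaled wild-type minus null tags per kb against the distance from the promoter centre in kb, negative upstream, for each gene, with blue bars where the interval overlaps the peak and grey bars where it does not. The tallest bar is 12.7 tags per kb at Arpc3 and 10.4 at Iars, both from 0 to +1 kb, 16.7 at Chmp2a from -1 kb to 0, and 23.9 at Dcxr from -2 to -1 kb.

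The rings nearest the start hold the peaks by which the genes were chosen, and their values only restate where these lie. Summed over the 4 genes, the first kb upstream held 26 wild-type and 7 null tags, 4.87 (2.06 to 13.3), and the next kb 27 and 4, 8.85 (3.08 to 34.8), of which Dcxr gave 19 and 1. Without Dcxr this next kb held 8 and 3, 3.50 (0.839 to 20.5). The first kb downstream held 40 and 28, 1.87 (1.13 to 3.15), and the next kb 13 and 19, 0.897 (0.407 to 1.92). From 5 to 10 kb the ratios were 1.15 (0.766 to 1.72) upstream and 1.06 (0.806 to 1.38) downstream. From 2 to 5 kb the ratio was 1.46 (0.832 to 2.59) upstream, from 29 and 26 tags, and 1.69 (1.14 to 2.52) downstream, from 62 and 48 tags. Without Dcxr the downstream value was 1.40 (0.829 to 2.36), from 33 and 31 tags, or 25 and 19 distinct tags. From 5 to 10 kb the ratios without Dcxr were 0.896 (0.534 to 1.48) upstream and 1.01 (0.691 to 1.46) downstream.

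Promoter intervals lay above 1 at 3 of the 4 genes, Arpc3, Iars and Chmp2a, with all tags. This was so at 62.4% of the promoters of the 671 promoter peaks, a share that the choice of these genes by the same contrast sets. Of 1999 high-CpG promoters, the part of a list of 19542 that was used here and not a random draw from it, 16.7% had such an interval. With 1 tag per position and strand Iars alone of the 4 kept it, at 3.85 (1.17 to 16.4), from 12 and 4 tags.

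**Figure D3:**
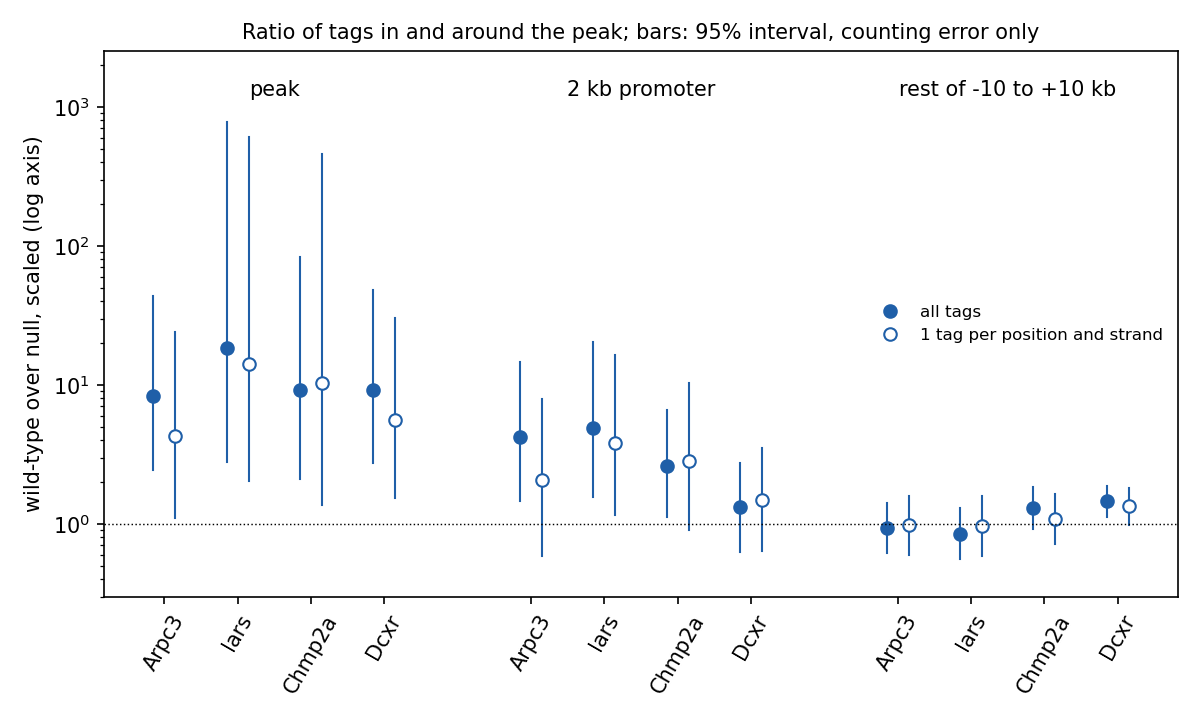
Scaled wild-type over null ratio on a log axis in the peak, in the 2 kb promoter and in the rest of the window from -10 to +10 kb, for all tags (filled) and 1 tag per position and strand (open), with bars for the exact 95% interval of counting error. Peak ratios run from 8.31 to 18.4 with all tags, while the outside ratios run from 0.853 to 1.46.

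Outside the peak 1 of the 4 genes, Dcxr, had an interval above 1. The share was 27.1% over the 671 promoter peaks and 11.6% over 126641 tiles of 20 kb across the genome. The promoter peaks with such an interval numbered 182, against 93 with distinct tags and 99 from -5 to +5 kb. At 8.35% of the promoter peaks the interval lay below 1, and none of the 4 genes was among these. Of the 671 promoter peaks, 127 had another listed peak within 10 kb, as none of the 4 genes did. The shares and the sum over all promoter peaks include these windows, and values without them are not given here. The sum over the 4 genes, 281 wild-type and 307 null tags, gave 1.20 (1.02 to 1.42), beside 1.17 (1.16 to 1.19) over all promoter peaks. Without Dcxr the sum was 1.04 (0.836 to 1.30), and without Chmp2a 1.17 (0.970 to 1.42). With distinct tags the sum over the 4 genes was 1.15 (0.942 to 1.39), with scaling by the chromosome 1.15 (0.971 to 1.35) and with scaling by the surrounding 1 Mb 1.02 (0.866 to 1.21). The edges of a peak follow its wild-type tags, so few of these can lie just outside. Without the 500 bp on either side of each peak the sum was 1.26 (1.06 to 1.49). From -5 to +5 kb the sum was 1.38 (1.07 to 1.78). In both settings Dcxr was the only 1 of the 4 genes with an interval above 1. From -5 to +5 kb its ratio was 1.80 (1.19 to 2.73), against 0.75 at Arpc3, 1.06 at Iars and 1.47 (0.895 to 2.43) at Chmp2a. The sum over all promoter peaks in these 2 settings is not given here.

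The share of the positive difference that fell in bins of the peak measures confinement in another way. It is the summed difference of peak bins with more scaled wild-type than null tags, over the same sum for the whole window. A wider peak has more bins that can add to its share, and the excess in the peak was given by the choice of genes. The share was 38.6% at Arpc3 in 10 of 100 bins, 30.8% at Iars in 5 bins, 21.1% at Chmp2a in 6 bins and 17.1% at Dcxr in 9 bins. The median over the promoter peaks was 25.02%, and 89.7% of them had a lower share than Arpc3, 72.0% than Iars, 35.6% than Chmp2a and 19.5% than Dcxr. The Arpc3 share is taken over a window with 32 empty bins in a row, and with distinct tags it was 28.5%, so its place among the peaks is uncertain. Bins below 0 are left out of this sum, and with them kept the share was 119.7%, 204%, 44.4% and 31.4% in the same order, so a low share does not place a difference outside the peak. The sums behind these shares are small and changed with distinct tags, as given below.

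**Figure D4:**
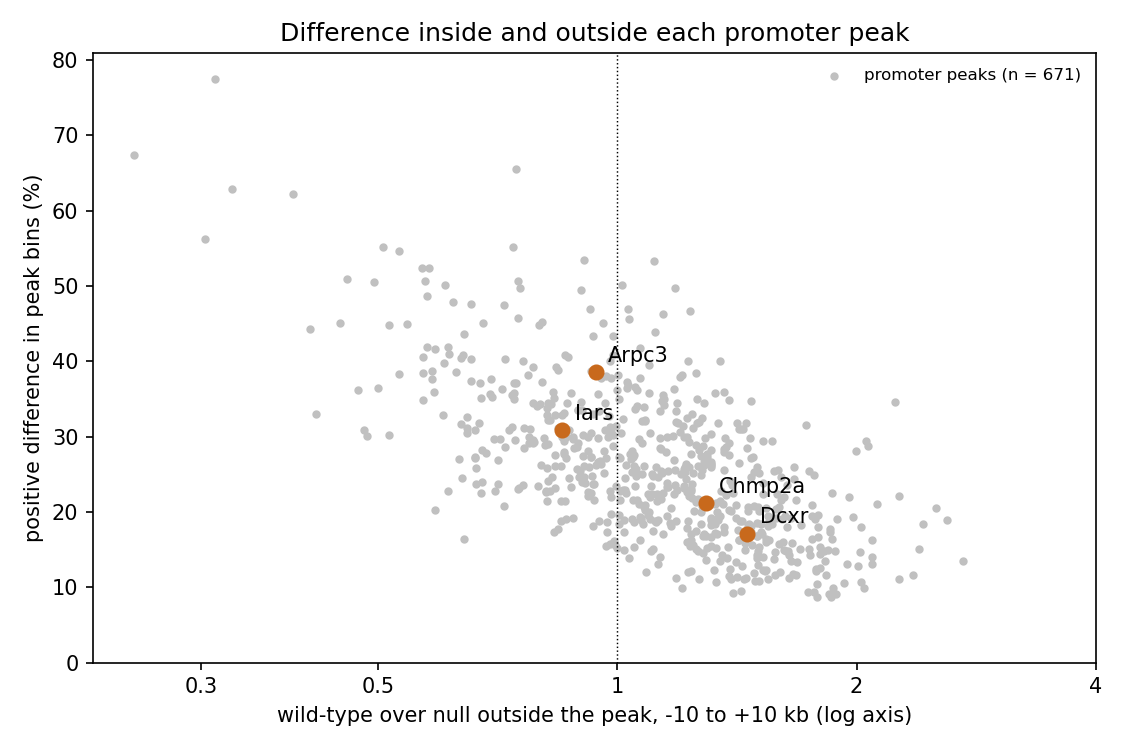
Share of the positive wild-type minus null difference in bins of the peak, in percent, against the ratio outside the peak on a log axis, with 1 point for each of 671 promoter peaks and the 4 genes in orange. Arpc3, at 38.6% and 0.940, and Iars, at 30.8% and 0.853, lie left of the dotted line at 1, though Arpc3 reached 1.06 without the 500 bp beside its peak and Iars 1.06 from -5 to +5 kb, and Chmp2a, at 21.1% and 1.29, and Dcxr, at 17.1% and 1.46, lie right of it.

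The net values depended on repeated positions. In bins outside the peak, scaled wild-type minus null tags summed to -3.60 at Arpc3 and -8.85 at Iars, and to 20.5 at Chmp2a and 53.5 at Dcxr. With distinct tags these sums were -0.966, -1.25, 4.99 and 30.0. In bins of the peak they were 21.9, 17.4, 16.4 and 24.5 in the same order, and 9.82, 13.1, 9.26 and 13.7 with distinct tags. The excess in the peaks is set by the choice of genes.

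High single bins outside the peaks were, with all tags, about as frequent as at all promoter peaks. Those include the 127 with another listed peak within 10 kb, which none of the 4 genes had. Of the 370 bins outside the peaks of the 4 genes, 13 (3.51%) had a difference of 5 or more scaled tags, against 3.22% of 62648 such bins at all promoter peaks. In the opposite direction 5 bins (1.35%) reached -5 or less, against 1.51%. Of the 13 bins 7 were at Dcxr, 3 at Chmp2a, 2 at Arpc3 and 1 at Iars. With distinct tags and the same limit of 5, 3 bins were left, all at Dcxr. The share at all promoter peaks with distinct tags is not given here, so nothing is read from this fall. The highest bin of the window lay in the peak at Arpc3 and Iars, which is 2 of 4 genes, and at 61.1% of the promoter peaks.

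None of the 4 was among the promoter peaks with most tags. Of the 671 peaks, 142 held more wild-type tags than the 21 of Dcxr and 209 more than the 19 of Arpc3, while 402 held more than the 14 of Iars and of Chmp2a. Peak widths were 786 bp at Iars, 1047 bp at Chmp2a, 1567 bp at Dcxr and 1823 bp at Arpc3, with a median of 995 bp over all promoter peaks. The Dcxr window was dense in both libraries, with fewer wild-type tags outside the peak at 96.4% of the promoter peaks and fewer null tags at 95.5%.

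The values were set beside those of lineage genes with promoter peaks. Cebpa, Cdx1, Wnt16 and Fgf6 encode transcription factors and secreted factors of differentiation. They held 122 wild-type and 25 null tags in their peaks, 6.40 (4.14 to 10.3). The 4 genes described here held 68 and 9, 9.91 (4.93 to 22.6). With distinct tags their ratio was 6.73 (3.12 to 16.6), and no such value is given here for the lineage genes. The peaks of the 4 genes are those by which they were chosen. Outside the peaks the lineage genes gave 1.44 (1.22 to 1.70), with single genes from 0.908 at Wnt16 to 2.07 at Cdx1. At Ing1, Cacng4 and AI428936, chosen for their wide promoter peaks, the outside ratio was 1.19 (0.987 to 1.43). The shares of positive difference in the peak ran from 22.3% to 53.4% at the lineage genes and from 37.9% to 50.1% at the wide peaks, against 17.1% to 38.6% here. The ranges of these shares overlap, and no difference between the groups was tested. The wide peaks also have more bins that can add to their shares.

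Some relatives of the 4 genes had a promoter peak too. Of 9 genes of the Arp2/3 complex 1 had one (11.1%), Arpc3 itself, and of 40 aminoacyl-tRNA synthetases 1 (2.50%), Iars itself, while the 661 genes with a peak come to 3.38% of the 19542 promoters listed. Of 12 ESCRT-III genes 3 had one (25%), Chmp2a, Chmp1a and Chmp4c. Of 12 genes of pentose and uronate metabolism and related reductases 2 had one (16.7%), Dcxr and Dhrs9. Each list holds 1 of the chosen genes, so nothing is read from these shares. Without a peak and with promoters counted here, Actr2 gave 1.31 (0.393 to 4.38) and Arpc5l 0.574 (0.200 to 1.47) in the Arp2/3 complex. Among the synthetases the ratio was 1.12 (0.475 to 2.62) at Qars and 2.03 (0.896 to 4.79) at Eprs.

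The other ESCRT-III peaks differed in what lay around them. Chmp4c held 16 wild-type and 4 null tags in its peak, 5.25 (1.69 to 21.6), and its outside ratio was 0.945 (0.641 to 1.39). Chmp1a held 12 and 1, 15.7 (2.33 to 673), and its outside ratio of 2.05 (1.52 to 2.77) had an interval above 1. The ESCRT-III genes Chmp5 and Chmp7, without a peak, had promoter ratios of 1.31 (0.461 to 3.73) and 0.984 (0.144 to 5.82). Dhrs9, a dehydrogenase of retinoid and steroid substrates, held 10 and 2 tags in its peak. Its outside ratio of 0.638 (0.413 to 0.968) had an interval below 1. From -5 to +5 kb the ratio was 0.997 (0.519 to 1.89), with an interval that held 1.

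The genes that neighbour the 4 in the RefSeq annotation of GRCm38.p6 are close by at Chmp2a and Dcxr. Ube2m, an enzyme that conjugates NEDD8, lies directly upstream of Chmp2a on the same strand, and Trim28 lies downstream on the opposite strand. Cbr2, a carbonyl reductase, lies directly upstream of Dcxr on the same strand, and the GTPase gene Rac3 and Lrrc45 lie downstream on the opposite strand. Nol8 lies upstream of Iars, and Gpn3 and the noncoding Gm32853 lie upstream of or across the start of Arpc3. Which of these genes the bins outside the peaks fall in was not analysed here, because the builds differ.

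The level of the larger surroundings varied from gene to gene. The ratio over the whole chromosome was 1.01 on chromosome 5 (Arpc3), 0.942 on chromosome 13 (Iars), 1.12 on chromosome 7 (Chmp2a) and 1.06 on chromosome 11 (Dcxr). Over the 1 Mb around each gene it was 1.26 at Arpc3, 1.13 at Iars, 1.02 at Chmp2a and 1.27 at Dcxr. With scaling by these local tags the outside ratios were 0.747 (0.493 to 1.12), 0.754 (0.490 to 1.15), 1.27 (0.897 to 1.79) and 1.15 (0.891 to 1.49) in the same order. No interval then lay above 1.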

How the data were processed

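uH2A ChIP-Seq of Bmi1 WT and Bmi1 KO MEFs was analysed from 1 library of each genotype. The authors mapped 25 bp tags to mm8, kept those with a single best place and at most 2 mismatches, and deposited 1 line per tag with repeated positions kept. The deposited score column of these lines is 0 throughout and was not used. A deposited peak list, made by the authors with TIROE from the wild-type tags against the null tags, has a count of wild-type tags, a fold enrichment (ratio) and a p-value for each peak. The authors' fold and p-value hold their own comparison and were not used beyond the choice of genes that they underlie.

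The members and lists were chosen with earlier results of these data known. The genes, their peaks and their promoter centres were taken from the study's list of promoter peaks, and the direction of each gene from RefSeq (GRCm38.p6). Tags were counted at the lower end of their alignment, in peaks, 2 kb promoters and 200 bp bins from -10 to +10 kb. A bin that overlaps the peak by at least 1 bp is a peak bin. Wild-type counts were scaled by 1.31 (1.28 for distinct tags). The edges of a peak follow its wild-type tags, so few wild-type tags can lie just outside it, and 500 bp on either side were left out in an alternative. Ratios have Clopper-Pearson intervals and bin counts exact Poisson intervals, at 95%, for counting error only. With 1 library of each genotype, no test was made.

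Named genes were the 4 genes, the 7 comparison genes, listed relatives with a promoter peak or a counted promoter, and neighbours in RefSeq. The Bmi1 locus was not analysed here, and not every gene of the lists is reported here. Alternatives were other placements of the tag, 1 tag per position and strand, scaling by the chromosome or by the surrounding 1 Mb, other windows, other bins and net differences. Counting was tested on simulated data. Python 3.11.15, numpy 2.4.6, scipy 1.17.1, pandas 2.3.3 and matplotlib 3.10.9 were used.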

Additional observations from a re-analysis of the deposited data

How the results depend on the processing

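Of 133 values recomputed under an alternative, 127 stayed within their interval, or within 1.5 times for shares and counts, and 6 moved. Many of these intervals are wide, as from 2.79 to 776 at the Iars peak, so most alternatives could hardly leave them. A value also counted as staying where its interval came to hold 1, as at the Arpc3 promoter with distinct tags. The tally therefore says little about how firm a value is. The outside ratio crossed 1 at Arpc3, from 0.940 to 1.06 (0.695 to 1.62) without the 500 bp on either side of the peak, and at Iars, from 0.853 to 1.06 (0.567 to 1.96) from -5 to +5 kb. Each interval held 1 before and after. With negative bins kept, the share of the net difference in bins of the peak was 119.7% at Arpc3 and 204% at Iars, where bins outside the peak summed below 0, 44.4% at Chmp2a and 31.4% at Dcxr. The number of promoter peaks with an outside ratio interval above 1 was 182, against 93 with 1 tag per position and strand and 99 from -5 to +5 kb, and the cause was not tested. Peak intervals lay above 1 at all 4 genes under each of the 5 alternatives for them. The interval outside the Dcxr peak lay above 1 in 5 of 7 alternatives and reached 1 with distinct tags and with scaling by the surrounding 1 Mb. The highest bin lay in the peak in 7 of 7 settings at Iars, 6 at Arpc3, where distinct tags gave a tie, 2 at Chmp2a and 0 at Dcxr. The sum over the genes and the sums without each gene were chosen after seeing the data. With 14 to 21 wild-type and 1 to 3 null tags in a peak, no ratio at a single gene is known more closely than its interval.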

Other observations

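Ribosomal protein genes, a larger group of genes that all cells need, also had promoter peaks. Those described here are Rps7, Rps21, Rps29 and Rpl36. Rpl36 held 14 wild-type tags and no null tag in its peak, and Rps21 held 30 and 7, 5.62 (2.42 to 15.2). The ratio outside the peak was 1.77 (1.30 to 2.41) at Rps21 and 1.41 (1.09 to 1.83) at Rpl36, and 1.04 (0.720 to 1.49) at Rps7 and 1.09 (0.700 to 1.70) at Rps29. With distinct tags it was 1.85 (1.23 to 2.80) at Rps21 and 1.33 (0.967 to 1.83) at Rpl36, whose interval then held 1. Among 12 ribosomal protein genes counted in their promoters without regard to peaks, Rpl18 was lower in the wild-type library, with 7 tags against 24, a ratio of 0.383 (0.139 to 0.915), and 3 had an interval above 1, against 16.7% of the 1999 promoters counted: Rps18, with 23 against 12, 2.51 (1.20 to 5.54), Rpl23a, 5.90 (1.22 to 56.1), and Rpl31, 3.15 (1.03 to 11.4).

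The listed peak nearest to Arpc3 lies 29.2 kb away and is the promoter peak of Anapc7, a subunit of the anaphase-promoting complex, with 16 wild-type and 4 null tags. The nearest to Chmp2a, 29.3 kb away with 10 and 2 tags, and the nearest to Dcxr, 46.7 kb away with 16 and 3, are at no listed promoter.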
